A study of Mus musculus with 12 samples.

Results

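Gene expression in the cerebellum of wild-type BALB/c mice was compared between postnatal day 21 (P21) and postnatal day 49 (P49), to describe which transcripts change while the tissue passes from the juvenile to the young adult stage. The comparison used 6 of the 12 arrays of the series: 3 from Npc1+/+ animals killed at P21 and 3 from Npc1+/+ animals killed at P49. The labels give every array as an individual animal and all 6 wild-type animals as female, kept on a standard chow diet with a day and night cycle and without further treatment. The other 6 arrays came from Npc1-/- (null) animals of the same strain, 3 at P21 and 3 at P49, which lack a functional Npc1 gene and model Niemann-Pick type C disease. They entered here as part of the shared estimate of spread and, at the end, to ask where the age difference of wild type differed from theirs. Total RNA of the whole cerebellum was labelled with biotin and hybridised to Affymetrix arrays, on which 7835 genes were tested of 12393 that a probe set with 1 symbol represented. Values are log2 intensities after quantile normalization, differences are P49 minus P21 on that scale with limma's standard error, and n = 3 animals per group throughout.

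By the age of weaning, granule neurons of the mouse cerebellum have finished dividing and have moved from the external to the internal granular layer, and Purkinje cells have formed most of their dendritic tree. Myelination of the cerebellar white matter is then past its steepest phase. Oligodendrocytes build myelin from proteins, galactolipids and cholesterol, and most brain cholesterol is made locally because plasma lipoproteins do not cross the blood-brain barrier. Later weeks are known for refinement of synapses and a slowing of vessel growth and of neurite extension.

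Markers of cerebellar neurons were at high intensity on all 6 wild-type arrays. Pcp2, a Purkinje cell gene, lay between 17.10 and 17.27, and Gabra6, a receptor subunit of granule neurons, between 17.06 and 17.18. Npc1 itself was at 11.06, 11.32 and 11.48 at P21 and at 11.35, 11.57 and 11.75 at P49 (difference 0.27, limma adjusted p = 0.894). Sex-linked genes went against the label of 1 wild-type array. Xist, the RNA of the inactive X chromosome, was at 9.28 on P21 replicate 2 and between 15.61 and 15.85 on the other 5. The Y-linked gene Eif2s3y was at 12.72 on P21 replicate 2 and between 4.35 and 8.91 on the others. This array is called the doubtful P21 array here. The number of calls and some of the results that depend on it are also given without it. For other genes only the number of fits that lost the call is given. The choroid plexus gene Ttr, which encodes transthyretin, was at 12.34, 17.52 and 17.39 at P21 and at 15.03, 14.36 and 12.76 at P49. The age groups overlapped for Ttr, and P21 replicate 1 was the lowest of the 6 arrays. Alas2, a gene of young red blood cells, was at 10.23, 9.69 and 11.44 at P21 and at 9.68, 8.91 and 8.46 at P49 (difference -1.44, limma adjusted p = 0.387). The part of these tissue admixtures in the results below was not tested.

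In limma, 55 of the 7835 genes (0.702%) differed between P21 and P49 at an adjusted p under 0.05. Of these, 42 fell (0.536%) and 13 rose (0.166%). In each of the 55 the 3 P49 arrays lay on one side of the 3 P21 arrays, as they did in 21.4% of all genes tested. The falls had a median size of 0.834 on the log2 scale and ran from 0.399 to 1.695, and 16 of them exceeded a 2-fold change. The rises had a median size of 0.748 and ran from 0.462 to 1.345, and 2 exceeded a 2-fold change. Over all genes the differences were balanced, with 49.4% above and 50.6% below 0 and a median of -0.003. At an unadjusted p under 0.05 there were 783 genes (9.99%). The number of calls rested on single arrays. Without P21 replicate 1, 2 rose and 15 fell. Without the doubtful P21 array, 3 rose and 12 fell, and 14 of the 55 calls were kept. Without P21 replicate 3, P49 replicate 1, P49 replicate 2 or P49 replicate 3, the rises were 3, 6, 1 and 1 and the falls 16, 32, 13 and 15. None of the 55 differences changed sign under any alternative run, which their separate groups made nearly certain beforehand. With the 6 wild-type arrays fitted alone, 50 genes rose (0.638%) and 76 fell (0.97%), and these 126 (1.61%) held all 55. Among the other 71 were falls of Col3a1, Sox4, Basp1, Synpr, Mest, Cdkn1a and Fabp7 and rises of Hlf, Sdc4, Nrip3, Cap2 and Use1. Below, whether a gene passed refers to the fit with all 12 arrays unless another is named.

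**Figure D1:**
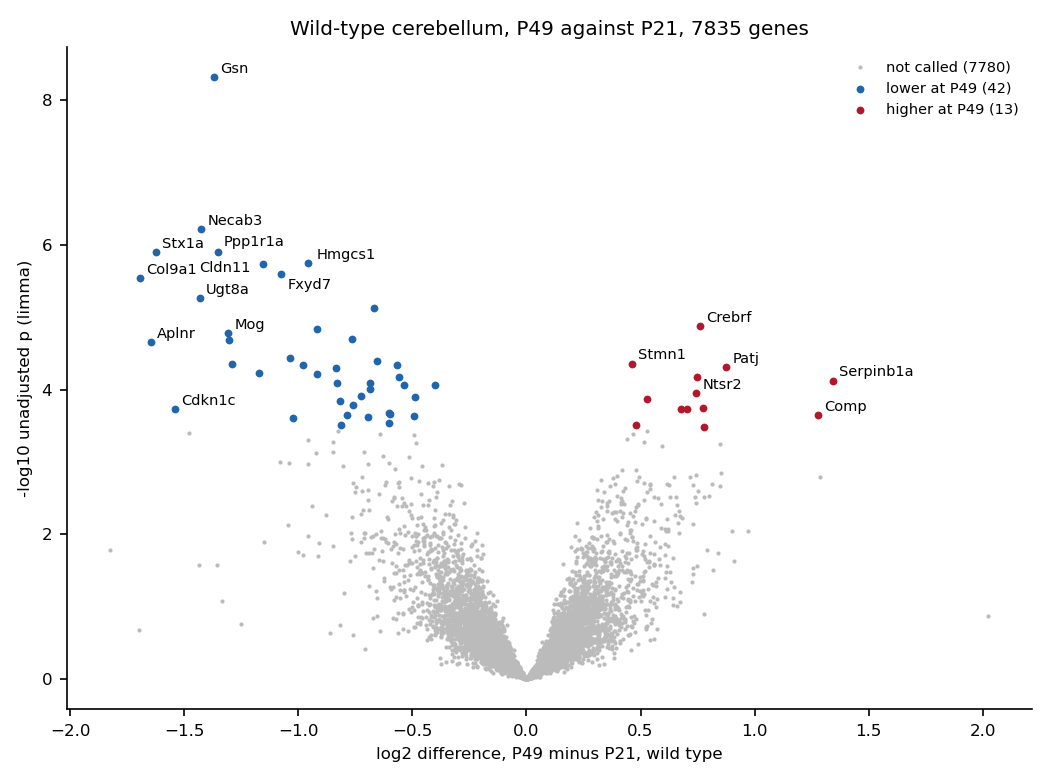
Each point is 1 of the 7835 genes tested; the x axis is the log2 difference between wild-type P49 and P21 and the y axis is -log10 of limma's unadjusted p. The 42 genes lower at P49 (blue) reach larger differences than the 13 genes higher at P49 (red), and Gsn has the smallest p.

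Genes of myelin and of the oligodendrocytes that make it held more of the falls than any other list. The list holds 32 myelin genes, of which 25 could be tested. Of these 8 fell and none rose (background 0.536% lower and 0.166% higher). The list median was -0.43 against -0.003 over all genes, and 20 of the 25 differences were negative. The groups did not overlap in the lower direction for 14 of the 25, against 11.1% of all genes, and in the higher direction for 4, against 10.4%.

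Gsn, which encodes the actin-severing protein gelsolin, was at 14.99, 14.88 and 15.13 at P21 and at 13.70, 13.52 and 13.67 at P49. The P49 arrays were all over 1 log2 unit below the lowest P21 array, and Gsn fell to 0.39 of its P21 level (log2 -1.37 ± 0.11, limma adjusted p = 3.77e-05). Of its 5 further probe sets, 3 gave -1.60, -1.55 and -1.79, a dim one gave -0.73, and 1 gave -0.25. Ugt8a, the enzyme that joins galactose to ceramide for the galactolipids of myelin, was at 15.63, 15.71 and 16.07 at P21 and at 14.39, 14.36 and 14.37 at P49. The P49 arrays were nearly equal, and the difference was -1.43 ± 0.20 (limma adjusted p = 0.00479), with -1.34 on its further probe set. Cldn11, the tight junction protein between myelin layers, was at 14.40, 14.55 and 14.79 at P21 and at 13.25, 13.39 and 13.63 at P49. It fell by 1.15 ± 0.15 on the log2 scale (limma adjusted p = 0.00241) with a wide gap between the groups. Gsn, Ugt8a and Cldn11 passed the test in all 6 fits that each left out 1 wild-type array.

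Mog, a glycoprotein of the outer myelin surface, was at 13.63, 13.58 and 14.20 at P21 and at 12.34, 12.38 and 12.77 at P49. The groups were separate and the difference was -1.31 ± 0.20 (limma adjusted p = 0.0101). Its call ended without P49 replicate 2 (adjusted p = 0.0657). The raft proteolipid gene Mal, at 15.60, 15.53 and 15.78 and then 14.44, 14.61 and 14.78, fell by 1.02 ± 0.21 on the log2 scale (limma adjusted p = 0.0383). The tetraspanin gene Tspan2 fell by 0.72 ± 0.14, the deacetylase gene Sirt2 by 0.54 ± 0.10 and Cnp, an enzyme of non-compact myelin, by 0.49 ± 0.09 on the log2 scale (limma adjusted p = 0.0265, 0.0205 and 0.0273). Mal, Tspan2, Sirt2 and Cnp lost their calls in all 6 fits without 1 wild-type array, with adjusted p from 0.0629 to 0.195 across them. P21 replicate 3 was the highest of the P21 arrays for all 8 of the genes that fell. Slc17a6, a transporter of glutamatergic neurons of the brainstem and deep nuclei, was at 11.18, 11.58 and 13.11 at P21 and at 11.45, 11.82 and 11.73 at P49, so it too was highest on P21 replicate 3. The 2 other tested genes of the brainstem and deep nuclei list were Th, at 9.04, 9.22 and 9.88 at P21, and Irx2, at 10.14, 10.36 and 10.18. Th too had wild-type means below the intensity filter of 9.929, at 9.38 and 9.51, and was tested through its null P49 mean of 12.38. A further 14 members lay below the filter. Without P21 replicate 3 the myelin list's median was -0.35, and Gsn at -1.31, Ugt8a at -1.30, Cldn11 at -1.05 and Mog at -1.11 still passed (limma adjusted p from 0.000607 to 0.0486).

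Not every myelin gene was called lower. Mbp, a structural protein of compact myelin, was at 17.37, 17.39 and 17.52 at P21 and at 17.35, 17.37 and 17.39 at P49 (difference -0.06 ± 0.07, limma adjusted p = 0.862). The groups overlapped. Whether the arrays still resolve a difference at so high an intensity was not tested. Mobp gave -0.27 ± 0.18 and Mag, the adhesion protein next to the axon, -0.58 ± 0.16, and neither passed (limma adjusted p = 0.717 and 0.169). Plekhb1 at 0.40, Qdpr at 0.32, Car2 at 0.31 and Apod at 0.21 had P49 arrays that were all above the P21 arrays, and none passed (adjusted p = 0.169, 0.26, 0.293 and 0.773). With the wild-type arrays fitted alone, Mag and Cd9 joined the falls and Plekhb1 rose, which made 10 lower and 1 higher.

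Among regulators of the lineage, Olig1, a transcription factor of oligodendrocyte differentiation, was at 14.75, 14.74 and 15.10 at P21 and at 14.27, 14.26 and 14.25 at P49. It fell by 0.60 ± 0.13 on the log2 scale with separate groups (limma adjusted p = 0.0432), and lost its call in all 6 fits without 1 wild-type array. It was the only 1 of 13 tested genes of precursors and newly formed oligodendrocytes that passed (background 0.536% lower and 0.166% higher). Of these 13, 12 differences were negative, against 50.6% of all genes, with a median of -0.24. Among them were Olig2 at -0.68 and Vcan at -0.65 (limma adjusted p = 0.402 and 0.369). Pdgfra, the receptor that marks precursors, gave -0.36 (0.385). Elovl1 and Hacd1, enzymes of the elongation cycle that makes very long fatty acids, are members of no list. Elovl1 was at 12.72, 12.80 and 13.10 at P21 and at 12.08, 12.16 and 12.29 at P49, and Hacd1 at 13.72, 13.22 and 13.44 and then 12.82, 12.58 and 12.52. Both fell with separate groups, by 0.70 ± 0.14 and 0.82 ± 0.16 on the log2 scale (limma adjusted p = 0.038 and 0.0293). Their calls ended in 6 and 5 of the 6 fits without 1 array.

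Genes of cholesterol synthesis held 4 of the falls. Of 18 tested members 4 fell and none rose at the threshold (background 0.536% and 0.166%), and all 18 had a negative difference, with a median of -0.37. In 12 of the 18 every P49 array lay below every P21 array, against 11.1% of all genes, and in none did every P49 array lie above, against 10.4%. Acat2, Insig1 and some other listed members were not analysed here. Hmgcs1, the synthase at the head of the mevalonate pathway, was at 16.01, 15.90 and 16.15 at P21 and at 15.06, 15.12 and 15.01 at P49. The gap between the groups exceeded the spread within them, and Hmgcs1 fell to 0.52 of its P21 level (log2 -0.96 ± 0.12, limma adjusted p = 0.00241). Its 3 further probe sets gave -0.90, -0.77 and -0.96, and it passed in all 6 fits without 1 wild-type array.

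Fdps, which makes farnesyl diphosphate at the branch to sterols, was at 13.16, 13.14 and 13.54 at P21 and at 12.75, 12.52 and 12.52 at P49. It fell by 0.69 ± 0.12 on the log2 scale (limma adjusted p = 0.0205). Sqle, which oxidises squalene, was at 13.78, 13.52 and 13.40 and then 12.91, 12.52 and 12.51, a fall by 0.92 ± 0.16 (limma adjusted p = 0.0186). Cyp51, which removes a methyl group from lanosterol, was at 13.40, 13.22 and 13.23 and then 12.77, 12.33 and 12.31, a fall by 0.81 ± 0.17 (limma adjusted p = 0.0455). In all 3 genes the groups were separate and P49 replicate 1 was the highest P49 array. Without P49 replicate 2 or 3, or P21 replicate 1 or the doubtful P21 array, none of the 3 passed (adjusted p from 0.0574 to 0.251). Between the mevalonate and squalene steps, Mvk at -0.56, Mvd at -0.40 and Idi1 at -0.38 had separate groups and did not pass (limma adjusted p = 0.327, 0.328 and 0.543). Sc5d at -0.03, Hsd17b7 at -0.04 and the regulator Srebf2 at -0.05 were the smallest differences of the list, and their groups overlapped.

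The stretches upstream of genes of this pathway are known for sterol regulatory elements, to which the SREBP transcription factors bind, and for CCAAT boxes, to which NF-Y binds beside them. The 250 bases before the annotated start are shown for the called genes with an entry in the RefSeq promoter table (build GRCm38.p6), because their transcripts fell together; matches to TCACNCCAC and to CCAAT on either strand, which did not overlap, are in capitals, and the sequences run from 5′ to 3′ on the gene's strand. Hmgcs1 is on the forward strand of chr13:119690101-119690350 and Cyp51 on the reverse strand of chr5:4104698-4104947.
Hmgcs1: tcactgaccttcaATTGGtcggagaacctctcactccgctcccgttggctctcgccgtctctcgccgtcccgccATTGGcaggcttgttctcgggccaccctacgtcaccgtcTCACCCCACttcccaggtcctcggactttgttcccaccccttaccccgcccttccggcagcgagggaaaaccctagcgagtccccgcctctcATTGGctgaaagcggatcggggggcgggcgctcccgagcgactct
Cyp51: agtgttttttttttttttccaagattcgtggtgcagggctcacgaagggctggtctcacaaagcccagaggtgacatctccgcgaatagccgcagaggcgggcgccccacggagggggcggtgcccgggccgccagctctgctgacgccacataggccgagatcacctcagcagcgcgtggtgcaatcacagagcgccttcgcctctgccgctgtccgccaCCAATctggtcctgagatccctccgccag
The Hmgcs1 stretch held 1 match to TCACNCCAC, which began 137 bases before the start, and 3 matches to CCAAT, and the Cyp51 stretch held 0 and 1. Of the 15 tested cholesterol synthesis genes with an entry, 1 (6.67%) held TCACNCCAC and 15 held CCAAT. Of all 6401 tested genes with an entry, 82 (1.28%) held TCACNCCAC and 2626 (41%) held CCAAT. A match describes letters in this window and not a site in use.

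Collagen genes and genes of the basement membrane, which surrounds brain vessels and lies under the meninges, held 3 of the falls. Of 23 tested members, 3 fell and none rose (background 0.536% and 0.166%), 17 differences were negative and 6 positive, and the median was -0.41. The P49 arrays were all below the P21 arrays in 13 members, against 11.1% of all genes, and all above in 1, against 10.4%. Col4a1, a chain of the type IV collagen network, was at 12.74, 12.58 and 12.95 at P21 and at 11.95, 11.15 and 11.25 at P49. It fell to 0.40 of its P21 level (log2 -1.31 ± 0.21, limma adjusted p = 0.0106), with -0.91 on its further probe set. Its partner chain Col4a2 gave -1.04 ± 0.25 with separate groups and did not pass (limma adjusted p = 0.107). Nid1, which links laminin to type IV collagen, was at 12.40, 12.63 and 12.64 and then 11.36, 11.70 and 11.66, and fell by 0.98 ± 0.17 on the log2 scale (limma adjusted p = 0.0163), with -0.41 on its further probe set. Eln, which encodes elastin, was at 11.74, 11.65 and 11.81 and then 10.73, 10.42 and 10.53, and fell by 1.17 ± 0.21 (limma adjusted p = 0.0184). Without P21 replicate 3, P49 replicate 2 or P49 replicate 3 none of the 3 passed, and over the 6 fits without 1 array their adjusted p ran from 0.00453 to 0.115. The fibrillar chains Col3a1 at -0.96 and Col1a2 at -0.47 had separate groups and did not pass (limma adjusted p = 0.287 and 0.677). With the wild-type arrays fitted alone, Col3a1 and Col6a2 joined the falls, which made 5 lower and 0 higher (background 0.97% and 0.638%). Laminin genes went both ways, with Lamc1 at -0.45 and Lamb1 at 0.18, and neither passed (0.38 and 0.778).

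Col9a1, which encodes a chain of type IX collagen and is in no list, had the largest fall of all called genes. It was at 12.11, 12.25 and 12.04 at P21 and at 10.18, 10.69 and 10.44 at P49, with separate groups (log2 -1.70 ± 0.22, limma adjusted p = 0.00279). Its further probe set gave -1.07, and the call held in all 6 fits without 1 wild-type array. Aplnr, the apelin receptor of growing endothelium, was at 11.09, 11.13 and 10.91 at P21 and at 9.77, 8.79 and 9.64 at P49 (log2 -1.65 ± 0.26, limma adjusted p = 0.0108). The groups were separate, but the P49 mean lay below the intensity filter of 9.929 on the log2 scale, so the size of the fall is uncertain, and the call ended without P21 replicate 1 or the doubtful P21 array (adjusted p up to 0.0671). It was the only 1 of 25 tested genes of endothelium and pericytes that passed, against 0.702% of all genes. The median of that list was -0.07, and Cldn5, a tight junction gene of brain endothelium, gave -0.54 (limma adjusted p = 0.252). In bulk tissue, fewer cells of a type and less RNA per cell cannot be told apart, and this holds for every group described here.

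Genes of growing neurites and of the young neuronal cytoskeleton were divided. Of 33 tested members of that list, 3 fell and 1 rose (background 0.536% and 0.166%). Differences were negative in 24, against 50.6% of all genes, and the median was -0.14. The P49 arrays were all below the P21 arrays in 10 members, against 11.1% of all genes, and all above in 3, against 10.4%. Marcksl1, a membrane-bound regulator of actin, was at 14.08, 14.18 and 14.09 at P21 and at 13.20, 13.15 and 13.24 at P49. The spread within each age was small beside the gap, and Marcksl1 fell by 0.92 ± 0.14 on the log2 scale (limma adjusted p = 0.00945). Its relative Marcks was at 15.38, 15.69 and 15.29 and then 14.91, 14.89 and 14.75, and fell by 0.60 ± 0.12 (limma adjusted p = 0.0364). Of 5 further Marcks probe sets, 4 gave from -0.56 to -0.92 and 1 gave 0.30. Tmsb10, which binds actin monomers, was at 16.33, 16.42 and 16.53 and then 15.92, 15.86 and 16.02, and fell by 0.49 ± 0.10 (limma adjusted p = 0.0373). Its further probe sets ranged from -0.72 to 0.83, the highest of them dim. Marcksl1 lost its call without P49 replicate 2 or the doubtful P21 array (adjusted p up to 0.058), and Marcks and Tmsb10 in all 6 fits without 1 array. Sox4, a transcription factor of young neurons, gave -0.71 and Basp1, a growth cone protein, -1.05, both with separate groups (limma adjusted p = 0.0826 and 0.249). With the wild-type arrays fitted alone, Sox4 and Basp1 joined the falls, which made 5 lower and 1 higher (background 0.97% and 0.638%). Gap43, another growth cone gene, gave -0.02 and overlapped (0.984).

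Stmn1, which encodes the microtubule-destabilising protein stathmin, went the other way. It was at 16.07, 16.02 and 16.09 at P21 and at 16.43, 16.65 and 16.49 at P49, and rose 1.38-fold (log2 0.46 ± 0.08, limma adjusted p = 0.0163), with 0.53 on its further probe set. Its family members Stmn2 at -0.12 and Stmn3 at 0.02 overlapped. Stmn1 is also the only called member of the 14 tested genes of cell division, against 0.702% of all genes. The median of that list was -0.03, while 24 further members lay below the intensity filter. The tubulin gene Tubb2a was at 15.23, 15.24 and 15.30 and then 14.82, 14.60 and 14.64, and fell by 0.57 ± 0.10 on the log2 scale (limma adjusted p = 0.0163). Tubulin genes are close in sequence, so probes of Tubb2a may share signal with Tubb2b, which gave 0.15. Dpysl4, a collapsin response mediator gene, was at 14.41, 14.38 and 14.12 and then 13.71, 13.76 and 13.48, a fall by 0.65 ± 0.11 (limma adjusted p = 0.0163). Stmn1 and Tubb2a lost their calls in 5 of the 6 fits without 1 array and Dpysl4 in 3.

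Among genes of transmission and excitability, Stx1a, a membrane protein of the vesicle fusion complex, was at 11.62, 11.52 and 11.71 at P21 and at 10.23, 9.52 and 10.23 at P49. The groups were separate and Stx1a fell to 0.32 of its P21 level (log2 -1.62 ± 0.20, limma adjusted p = 0.00241). Its call held in all 6 fits without 1 wild-type array. The P49 mean of 9.99 was close to the intensity filter of 9.929 and P49 replicate 2 lay below it, so the size is uncertain. Its dim further probe set gave a smaller fall of -1.04. Stx1a was the only called 1 of 38 tested synaptic vesicle genes, whose median was 0.04, against 0.702% called of all genes. Synpr, a vesicle membrane protein, gave -0.64 and did not pass (limma adjusted p = 0.0538). Ppp1r1a, an inhibitor of protein phosphatase, was at 12.11, 12.20 and 12.30 and then 11.00, 10.57 and 10.98, and fell by 1.35 ± 0.17 on the log2 scale (limma adjusted p = 0.00241). Fxyd7, a brain regulator of the sodium pump, was at 13.10, 13.05 and 12.89 and then 11.92, 11.92 and 11.98, and fell by 1.07 ± 0.14 (limma adjusted p = 0.00279). Necab3, a calcium-binding protein of neurons, was at 12.96, 12.67 and 12.66 and then 11.52, 11.38 and 11.10, and fell by 1.43 ± 0.16 (limma adjusted p = 0.00236). Ppp1r1a, Fxyd7 and Necab3 had separate groups and passed in all 6 fits without 1 array. Cacna2d3, an auxiliary subunit of calcium channels, was at 13.76, 13.62 and 13.66 and then 12.98, 13.22 and 13.18, a fall by 0.56 ± 0.10 that lost its call in each such fit (limma adjusted p = 0.0189).

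The other falls came from several functions. Cdkn1c, an imprinted inhibitor of cyclin-dependent kinases, was at 11.09, 11.22 and 11.57 at P21 and at 10.08, 9.46 and 9.72 at P49 (log2 -1.54 ± 0.31, limma adjusted p = 0.0335). Rprm, a gene linked to arrest of the cell cycle, was at 10.92, 10.87 and 10.64 and then 9.78, 9.21 and 9.56 (log2 -1.29 ± 0.22, limma adjusted p = 0.0163). Both had separate groups, a P49 mean below the intensity filter and therefore an uncertain size, and calls that ended in 6 and 5 of the 6 fits without 1 array. The imprinted gene Mest had separate groups at -0.85 and did not pass (limma adjusted p = 0.0828). Phc2, a Polycomb protein gene, was at 14.32, 14.25 and 14.22 and then 13.64, 13.59 and 13.55. It fell by 0.67 ± 0.10 on the log2 scale with little spread (limma adjusted p = 0.00591), also without any 1 wild-type array. Its further probe set, also above the filter, gave a smaller difference of -0.32. Eps8, an actin capping protein gene, was at 14.85, 14.63 and 14.63 and then 14.09, 13.64 and 13.27, and fell by 1.04 ± 0.17 (limma adjusted p = 0.0163), with its call ending in 5 of the 6 fits without 1 array. The remaining falls were Sipa1l2, Rflnb, Grb14, Sh3gl3, Sytl2, Klhl2, Fabp5 and Zfand5 (limma adjusted p from 0.0106 to 0.0371), from -0.84 for Sipa1l2 to -0.40 for Zfand5, whose further probe sets gave -0.21 and -0.20. Sh3gl3, an endophilin of vesicle recycling, was at 12.67, 12.81 and 12.85 and then 11.86, 12.03 and 12.15. Sytl2, which tethers vesicles to the membrane, was at 12.34, 12.22 and 12.15 and then 11.69, 11.52 and 11.22. Rflnb, Grb14, Klhl2 and Fabp5 lost their calls in all 6 fits without 1 array, and Sipa1l2, Sh3gl3, Sytl2 and Zfand5 in 4, 3, 5 and 5.

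**Figure D2:**
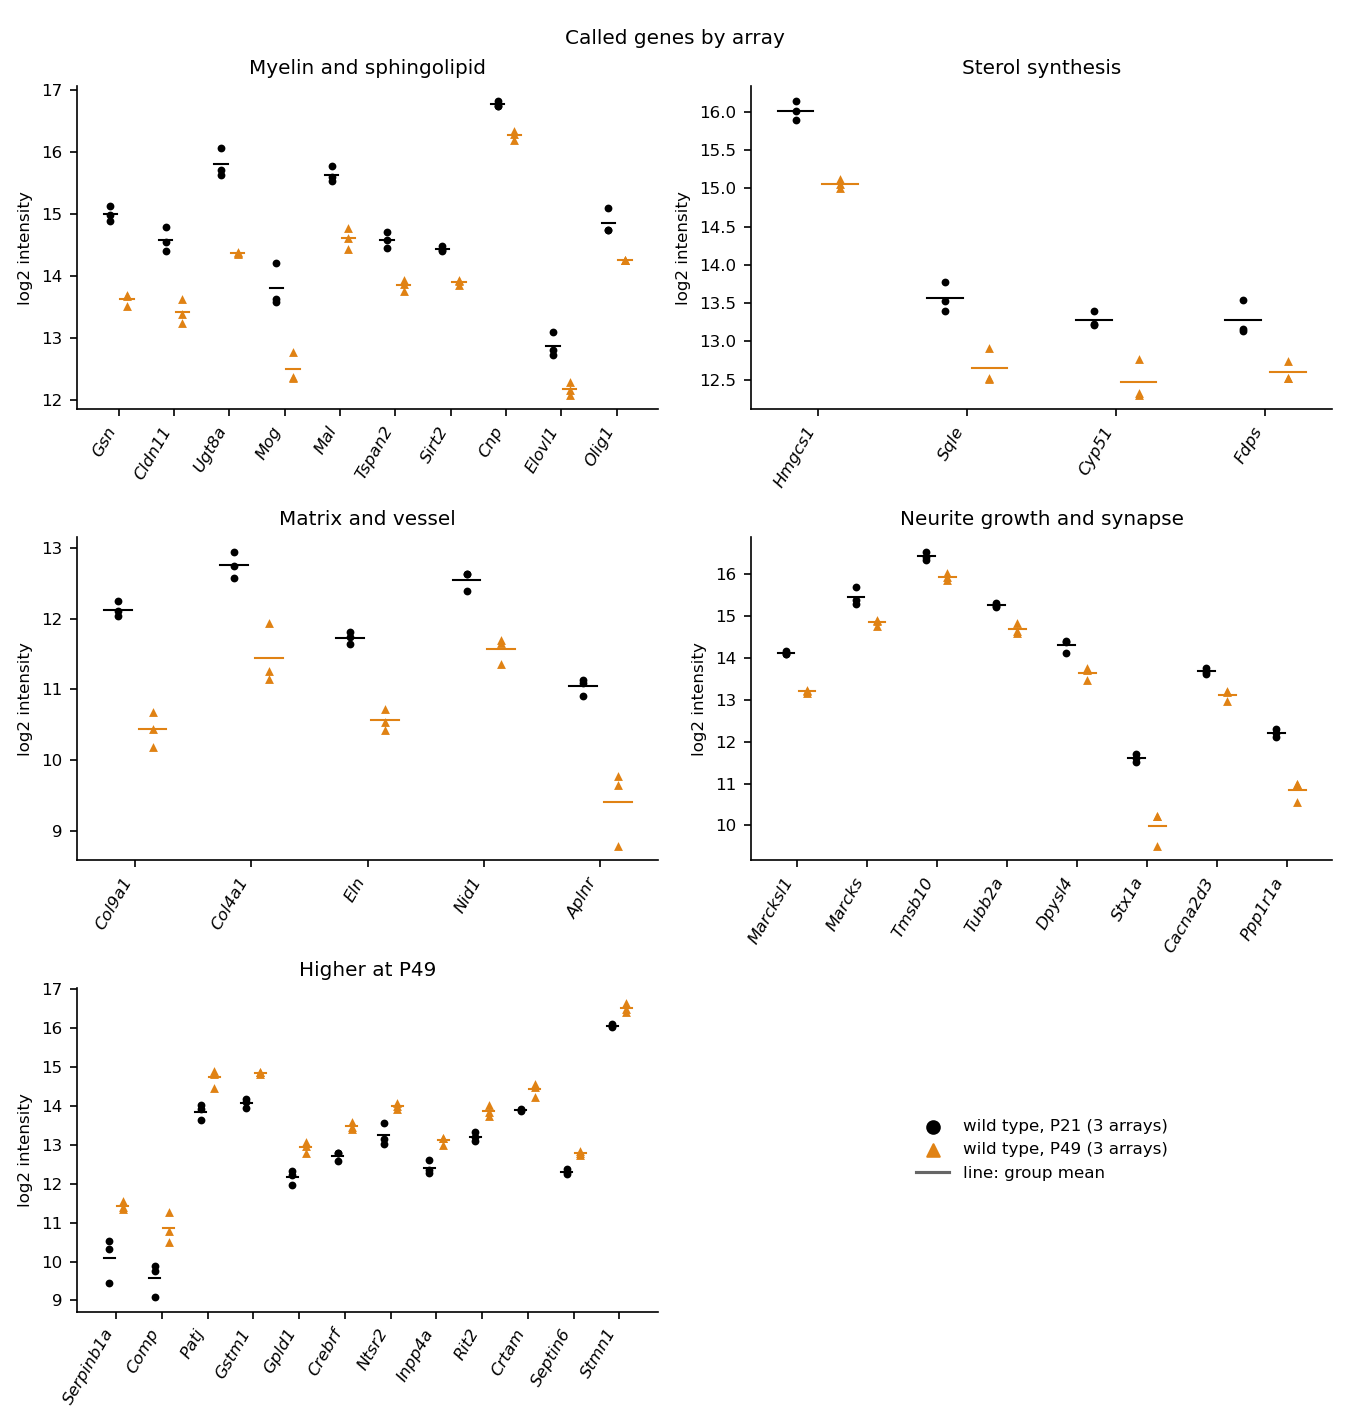
Log2 intensity (y axis) of named called genes on each wild-type array, with P21 as black circles, P49 as orange triangles and a line at each group's mean of 3 arrays; the panels group genes by function. In every gene drawn the 3 P49 arrays lie wholly below the 3 P21 arrays in the first 4 panels and wholly above them in the last.

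The 13 rises were fewer and formed no list. Serpinb1a, an inhibitor of serine proteases, was at 9.45, 10.53 and 10.31 at P21 and at 11.40, 11.56 and 11.36 at P49, and rose 2.54-fold (log2 1.34 ± 0.24, limma adjusted p = 0.0203). Its dim further probe set gave 0.39. Comp, a matrix protein of cartilage and vessel wall, was at 9.89, 9.09 and 9.75 and then 10.50, 10.79 and 11.27 (log2 1.28 ± 0.26, limma adjusted p = 0.0371). The groups were separate in both genes, but the P21 mean of Comp lay below the intensity filter, so its size is uncertain. Patj, a scaffold of tight junctions and cell polarity, was at 13.63, 14.01 and 13.93 and then 14.46, 14.91 and 14.83, and rose by 0.88 ± 0.15 on the log2 scale (limma adjusted p = 0.0163), with 0.92 on its further probe set. Crebrf, a regulator of a stress-linked transcription factor, was at 12.79, 12.59 and 12.80 and then 13.45, 13.41 and 13.60, and rose by 0.76 ± 0.12 (limma adjusted p = 0.00945), with 0.74 on its further probe set. Crebrf kept its call in 4 of the 6 fits without 1 array, Patj in 2, and Serpinb1a and Comp in 1.

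Ntsr2, the neurotensin receptor of astrocytes and Bergmann glia, was at 13.16, 13.03 and 13.56 at P21 and between 13.91 and 14.07 at P49. It rose 1.67-fold with separate groups (log2 0.74 ± 0.14, limma adjusted p = 0.0251). It was the only called 1 of 38 tested astrocyte genes, whose median was 0.05, against 0.702% called of all genes. It kept its call in 1 of the 6 fits without 1 array. Fabp7, a fatty acid carrier of radial and Bergmann glia, was at 16.01, 16.03 and 15.68 and then 15.42, 14.95 and 14.59, a difference of -0.92 that did not pass (limma adjusted p = 0.0841). Gfap, the filament of mature astrocytes, gave -0.31 (0.618). With the wild-type arrays alone, Ntsr2 and Vim rose and Fabp7 and Id3 fell. The other rises were Gstm1 at 0.78, Gpld1 at 0.77, Inpp4a at 0.70, Rit2 at 0.68, Crtam at 0.53, Septin6 at 0.48 and 1 gene known by a clone name. The 6 with a name had limma adjusted p from 0.0278 to 0.047, and lost their calls in 5 (Crtam) or all 6 of the fits without 1 wild-type array. Inpp4a, a phosphoinositide phosphatase, was at 12.28, 12.62 and 12.35 and then 13.01, 13.18 and 13.17, with 0.04 on its further probe set. Gstm1, a glutathione transferase, has close relatives whose transcripts its probes may share, and its further probe sets gave 0.24, 0.70 and 0.66. Rit2, a small GTPase of neurons, was at 13.09, 13.33 and 13.19 and then 13.75, 13.86 and 14.03. The next smallest p-values among positive differences were those of Nrip3, Cap2 and Use1, which did not pass (limma adjusted p = 0.0515, 0.0538 and 0.0607).

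Genes that mark the neuron types of the cerebellum were not called in either direction. None of 31 tested Purkinje cell genes, 22 genes of mature granule neurons or 15 genes of interneurons passed at an adjusted p under 0.05 in limma, and none did with the wild-type arrays fitted alone. At an unadjusted p under 0.05 there were 2, 4 and 2, where the share over all genes was 9.99%. The Purkinje list had 28 positive differences of 31 and a median of 0.14, and 9 members had P49 arrays all above the P21 arrays and none all below, where the shares over all genes were 10.4% and 11.1%. Homer3, a postsynaptic scaffold of Purkinje spines, was at 13.82, 14.01 and 12.98 at P21 and at 14.03, 14.15 and 14.14 at P49 (difference 0.50, limma adjusted p = 0.594). Its P21 replicate 3 stood below the other arrays, and that array was also the lowest of the 6 over the whole list, with a median of -0.11 relative to each gene's mean over 12 arrays, against 0.13 and 0.15 on the other P21 arrays and 0.19 to 0.25 at P49. The median of the list without P21 replicate 3 was 0.06. Calb1 at 0.14, Pcp2 at 0.07 and Car8 at 0.04, all abundant in Purkinje cells, differed by less than their standard errors. The granule list had a median of 0.04, with Cbln3 at 0.47 (limma adjusted p = 0.218) and Gabra6 at -0.01 (0.984). Whether the arrays still resolve a difference at intensities as high as those of Pcp2 and Gabra6 was not tested. The interneuron list had a median of 0.05, with Gad2 at 0.61 (0.352).

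No gene passed in the lists of GABA and glycine receptors, glutamate receptors and potassium channels. Among 15 tested GABA and glycine receptor and chloride transporter genes, Gabra2 was at 11.55, 11.43 and 11.50 at P21 and at 12.49, 12.03 and 12.67 at P49 (difference 0.90, limma adjusted p = 0.274) and rose with the wild-type arrays alone. Among 21 glutamate receptor genes Gria1 gave 0.41 (0.278), and among 27 potassium channel genes Kcna2 gave 0.61 (0.309) and Kcnj9 0.37 (0.143). At an adjusted p under 0.05 in limma these 3 lists held 0 genes, 2, 2 and 3 had an unadjusted p under 0.05 (9.99% of all genes), and their medians were 0.04, 0.09 and 0.11. None of 15 genes of brain proteoglycans and perineuronal nets passed either, while 4 had an unadjusted p under 0.05, with Ncan at -0.70 (0.34) and Sdc4 at 0.74 (0.137).

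The lists of metabolism, of response genes and of other cells given next held no called gene in limma. The 63 tested genes of oxidative phosphorylation had 45 negative differences and a median of -0.09, and 20 had P49 arrays all below the P21 arrays (11.1% of all genes). The size of that median depended on the normalization. It was -0.035 on the values as deposited and -0.032 with scaling to the 75th percentile. The 37 tested ribosomal protein genes had 32 positive differences and a median of 0.12, and 11 had P49 arrays all above (10.4% of all genes), with Rps10 at 0.31 and Rps19 at 0.31 (limma adjusted p = 0.174 and 0.254). The 16 circadian output genes had a median of 0.34, with 13 positive, and Hlf was at 12.06, 12.31 and 12.20 and then 12.82, 13.08 and 13.22 (difference 0.85, limma adjusted p = 0.0654). The hour of death was not used here. The 16 genes of the glucocorticoid and stress response had a median of -0.32. In that list Cdkn1a, an inhibitor of the cell cycle, was at 13.74, 13.17 and 14.10 and then 12.73, 11.51 and 12.33 (difference -1.48, limma adjusted p = 0.0538). The 11 genes of antigen presentation and interferon response had a median of 0.28, with H2-K1 at 0.67 (0.201) and H2-D1 at 0.63 (0.169), which are close in sequence and may share probes. The 19 microglia genes had a median of -0.10, the 15 meningeal genes of 0.31 and the 4 choroid plexus genes above the filter of -0.72. The filter of 9.929 used the mean over 12 arrays, null arrays included. In the microglia list, Mpeg1 had wild-type means of 7.46 at P21 and 8.10 at P49, and Fcgr3 of 9.61 and 9.24. Both reached the filter through null arrays, with null P49 means of 13.75 and 11.63, so the microglia median includes genes dim in wild type. At an unadjusted p under 0.05 there were 10 genes of oxidative phosphorylation, 6 ribosomal, 5 circadian, 4 stress response, 5 antigen presentation, 0 microglia, 2 meningeal and 0 choroid plexus genes, where the share over all genes was 9.99%.

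**Figure D3:**
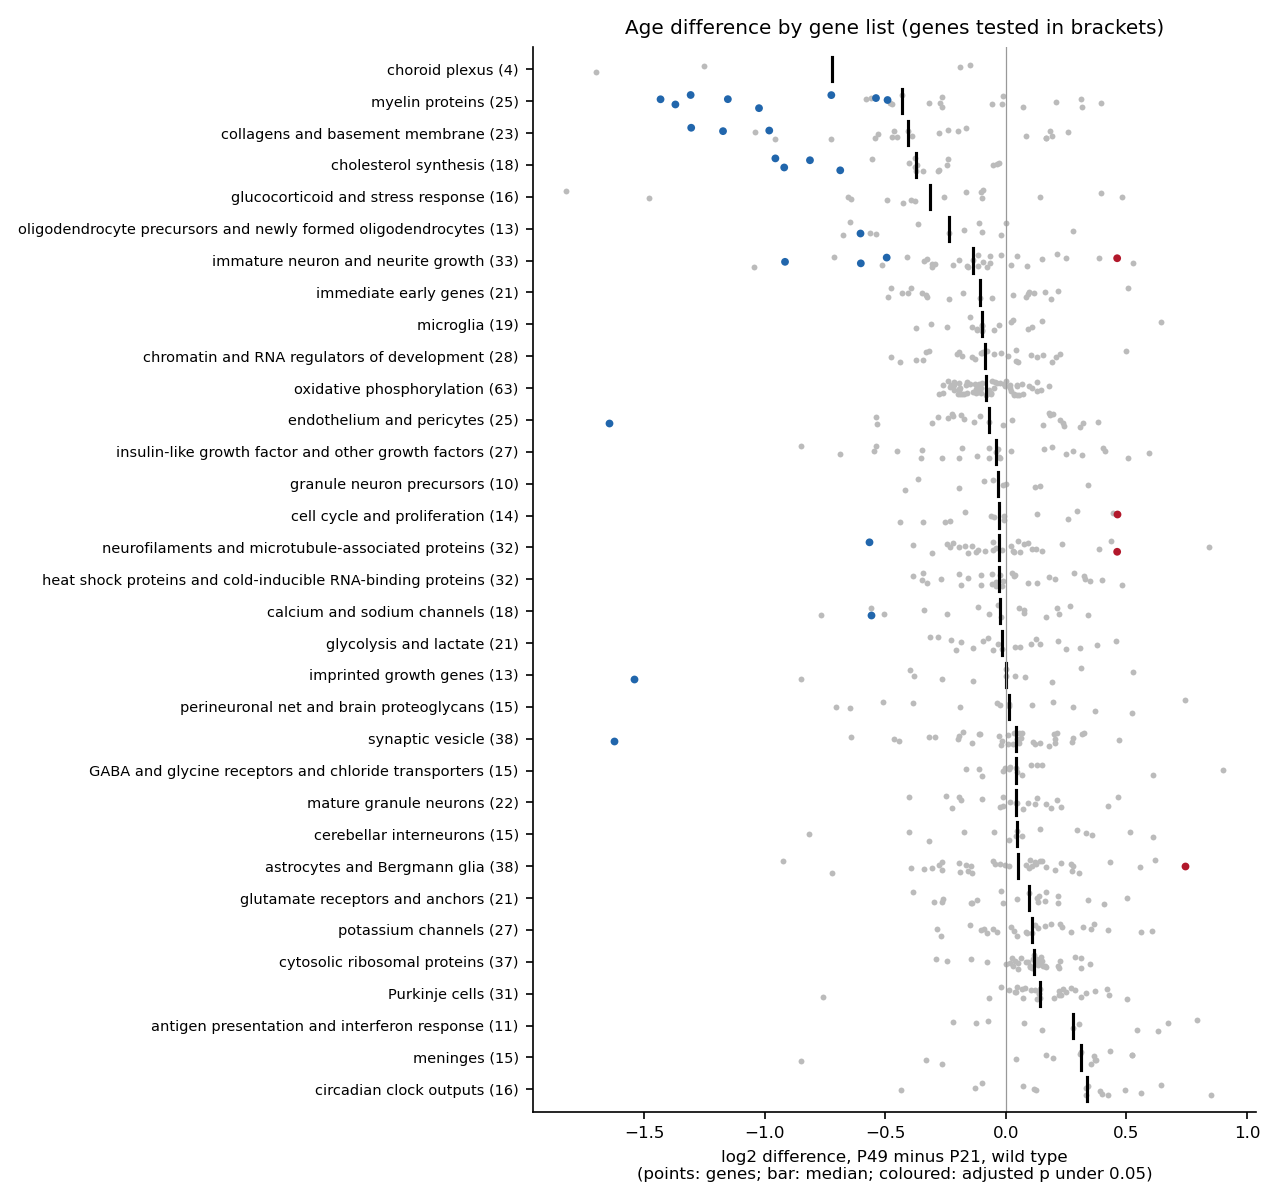
Log2 difference between wild-type P49 and P21 (x axis) for each tested member of each gene list (rows), with a bar at the list's median; blue and red points are members lower or higher at an adjusted p under 0.05. Called members lie mainly in the myelin, collagen and basement membrane, cholesterol synthesis and neurite growth lists, and the Purkinje cell and mature granule neuron lists hold no called gene.

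The age difference was then set beside that of Npc1-null cerebellum. In null arrays 488 genes (6.23%) differed with age, 218 higher (2.78%) and 270 lower (3.45%). Of the 55 genes called in wild type, 53 had the same sign in null arrays and 38 were also called there in that direction. These counts describe genes that were chosen by their wild-type difference. The difference between the age effects was tested as an interaction and passed for 43 genes (0.549%, with 8.44% at an unadjusted p under 0.05). Of these, 27 were higher and 16 lower. The filter used all 12 arrays, so a gene high only in null arrays could be tested. With the filter on the 6 wild-type arrays, 16 were higher and 12 lower, all of them among the 43. Of the 55 genes called in wild type, 2 were among the 43, Fabp5 and Inpp4a. Fabp5, a fatty acid carrier, was at 15.15, 15.18 and 15.38 in wild type at P21 and at 14.66, 14.59 and 14.66 at P49, a fall by 0.60 ± 0.12 on the log2 scale (limma adjusted p = 0.0371), and rose by 0.44 in null (0.0473), with an interaction of 1.03 (0.0124). Inpp4a rose by 0.70 in wild type (limma adjusted p = 0.0335) and fell by 0.60 in null (0.0229), with an interaction of -1.30 (0.00717). The wild-type calls of both ended in all 6 fits without 1 wild-type array. Sex-linked genes also went against the labels of null arrays. Null P21 replicates 2 and 3, labelled female, had Xist at 13.01 and 13.36, between the doubtful P21 array and the other wild-type arrays, and Eif2s3y at 9.25 and 12.67. Null P49 replicate 1, the only array labelled male, had Xist at 15.63 and Eif2s3y at 7.93, both within the range of the 5 other wild-type arrays. Without null P49 replicate 1 the interaction had 26 genes higher and 29 lower, with Inpp4a at -1.22 and Fabp5 at 1.10 (limma adjusted p = 0.0138 and 0.0112). Without null P21 replicates 2 and 3 and the doubtful P21 array, 39 genes were higher and 12 lower in the interaction, in which Inpp4a was at -1.34 (limma adjusted p = 0.00726) and Fabp5 at 0.80 (0.0535), so Fabp5 no longer passed.

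In the groups that fell in wild type, most differences were not told apart between the genotypes. Over all genes tested, 0.549% passed the interaction, and the counts below stand beside that share. The myelin list had a median of -0.43 in wild type and -0.06 in null, and 1 of its 25 genes passed the interaction, Cd9, at -0.47 in wild type and 0.67 in null (interaction adjusted p = 0.00717 in limma). Mog was at -1.31 and -0.75 (interaction 0.55, adjusted p = 0.65) and Cldn11 at -1.15 and -0.60 (0.56, 0.458). The cholesterol synthesis list had medians of -0.37 and -0.37, and none of its genes passed the interaction. The collagen and basement membrane list had medians of -0.41 and -0.37, and 1 of its 23 tested genes passed the interaction. Col4a1 was at -1.31 and -1.94 and did not pass (interaction -0.64, limma adjusted p = 0.581). The Purkinje list had medians of 0.14 in wild type and -0.60 in null, and 7 of its 31 genes passed the interaction, against 0.549% of all genes.

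**Figure D4:**
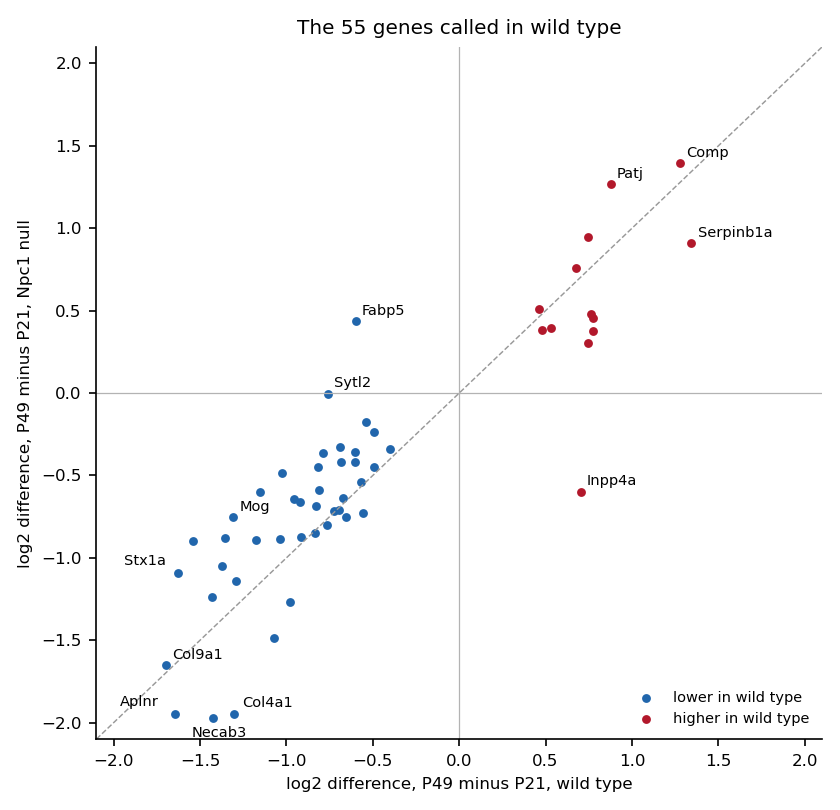
Log2 difference between P49 and P21 in wild type (x axis) and in Npc1-null animals (y axis) for the 55 genes called in wild type; the dashed line marks equal differences. Of the 55, 53 lie in the quadrants of equal sign, and Fabp5 and Inpp4a lie in the others.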

How the data were processed

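RNA of 12 cerebella was measured on 1 Affymetrix array each, in 4 groups of 3 animals taken from the genotype and time point labels. One protocol text of the labels gives P21 as the age of all animals; the time point labels, which the series design bears out, were used. The authors deposited a linear intensity for each of 22690 probe sets, 64 of them controls. How probes were summarised and scaled is not given in the sources used here. No 2 arrays shared more than 33 identical values, so each was counted as a separate sample. Detection calls were not used, so dim genes are not known to lie above background. The number of arrays limits the precision.

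Intensities were transformed to log2(value + 16), which understates changes of dim genes, and quantile normalized because array medians ranged from 10.65 to 10.92. Genes were named through the platform annotation, in which 20380 probe sets had 1 symbol, 691 several and 1555 none, updated by Entrez identifier with a RefSeq table of GRCm38.p6 (20351 matched, 29 not). Each gene was represented by its brightest probe set with 1 symbol and tested where that mean over 12 arrays reached the 40th percentile (log2 9.929, intensity 959), which left out 4558 genes. Group means were compared in limma 3.58.1 with R 4.3.3, with 8 residual degrees of freedom, a mean-variance trend, two-sided tests and Benjamini-Hochberg adjustment over 7835 genes at 0.05. The fit was tested on simulated data. The 37 gene lists, the members and the tests were chosen with earlier results of these data known, so no list is independent evidence of its direction.

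Genes were named by a rule: up to 15 with the largest called rise and up to 15 with the largest called fall, filled by smallest p; from each list up to 8 called members, or the 2 with the smallest p; every member of a list of fewer than 8; and for the interaction the 5 with the smallest p each way. Clone names were counted and not printed. Further genes of a list that are named beside these were chosen after their values were seen. Alternatives were the normalization, the pseudocount (1 or 64), the filter, averaging of probe sets, the arrays in the fit, the variance model, the replicate number as a block, and leaving out arrays. One, normalizing the wild-type arrays alone, was chosen after seeing the data.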

Additional observations from a re-analysis of the deposited data

Results flagged for a closer look

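These genes had an age difference that differed between wild-type and null animals by the interaction test in limma (adjusted p under 0.05), given as null minus wild type on the log2 scale. Among the genes called in wild type they were Inpp4a at -1.30 and Fabp5 at 1.03. Among genes of Purkinje cells and their signalling, which had small positive differences in wild type, they were Rgs8 at -1.11, Kcnma1 at -1.20 and Cacna1g at -1.33. Among microglial and lysosomal genes the values were Tyrobp at 2.80, C1qa at 2.31, C1qc at 2.12, Fcgr3 at 2.05, Ctsd at 1.63 and Npc2 at 0.98. The astrocyte filament gene Gfap was at 2.83 and Th, an enzyme of catecholamine synthesis, at 3.30. Th had wild-type means of 9.38 at P21 and 9.51 at P49, and Fcgr3 of 9.61 and 9.24, below the filter of 9.929. Both reached the filter through null P49 means of 12.38 and 11.63, so their being tested depended on the group where they were high. The immediate early gene Jun was at 0.79, the glycosyltransferase gene B3gnt5 at -1.87 and Plxdc1 at -1.0.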

How the results depend on the processing

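Counts moved between settings. None of the 55 called differences changed sign in any setting. Their groups did not overlap, so a sign could hardly change, and this is no test of direction. The 10 genes Gsn, Cldn11, Ugt8a, Hmgcs1, Col9a1, Stx1a, Ppp1r1a, Fxyd7, Necab3 and Phc2 passed in every setting that tested them. Another 19 lost their calls in all 6 fits without 1 wild-type array. Against 13 higher and 42 lower in wild type, the counts were 50 and 76 with only the 6 wild-type arrays in the fit, 51 and 75 with these arrays also normalized alone, 92 and 123 with array quality weights, 7 higher without a mean-variance trend, and 65 higher without the 3 P21 arrays of doubtful sex label (wild-type replicate 2 and null replicates 2 and 3). Leaving out 1 of the 12 arrays gave from 1 to 43 higher and from 12 to 69 lower, the most without null P21 replicate 2. For the interaction, against 27 higher and 16 lower, the counts were 10 lower without a filter, 16 higher with the filter on the wild-type arrays, 8 lower without a trend, and 51 and 38 with quality weights. Leaving out 1 array gave from 14 to 42 higher and from 3 to 29 lower. The cause of these shifts was not tested.

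The labels number the replicates 1 to 3 in each group. Deviations of same-numbered wild-type arrays correlated at 0.16, 0.087 and 0.123, so the numbers were not taken as pairs, although every array correlated best with its own number. With the replicate number as a block, 11 genes rose and 38 fell in wild type, of which 45 were among the 55, and the interaction had 10 lower.

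No detection calls were used, so Aplnr, Cdkn1c, Rprm and Comp, whose mean at 1 age lay below the filter, have uncertain sizes. The size of Stx1a is also uncertain, as its P49 mean of 9.99 was close to the filter. The same holds for the interactions of Th and Fcgr3, whose wild-type means at both ages lay below it. With 3 animals a group, a difference that missed the threshold is not shown to be absent.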
